A study of Mus musculus with 4 samples.

Results

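Integrins are paired cell surface receptors, each made of an alpha and a beta chain, that bind proteins of the extracellular matrix. Here 9 integrin chain genes of lens cells and Ilk, the gene of integrin-linked kinase, were followed in lenses of mice without S100A4. They were taken as the rows of the expression table whose Ensembl identifier has one of the symbols Itga2, Itga3, Itga5, Itga6, Itgav, Itgb1, Itgb4, Itgb5, Itgb8 or Ilk. All 10 had a row among the 14924 genes of the table, and all 10 were among the 14780 genes tested. This rule reads symbols and no measured value, and the list of symbols was drawn up with earlier results of these data known.

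The study made stranded mRNA-seq libraries from lenses of mice at postnatal day 30 (P30) on a C57BL/6 background, as the labels give it, or C57BL/6J in the study's methods. There were 2 libraries of S100A4-/- lenses, from S100A4 null mice, and 2 of lenses of WT littermates. No mouse received an agent. Each library came from a pool of 6 to 12 lenses, so it holds the epithelium and the fibers together, and although the study worked with mice of both sexes, the makeup of each pool by sex is not given in the sources used here. In such whole-lens RNA, fewer cells of a type and less RNA per cell cannot be told apart.

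In the lens, integrins hold the anterior epithelium and the tips of the fiber cells to the capsule, a thick basement membrane rich in laminin and collagen IV. Chains alpha3 and alpha6 pair with beta1 to bind laminin, and alpha6 also pairs with beta4 in the hemidesmosomes of other epithelia. Chain alpha2 with beta1 binds collagen, alpha5 with beta1 binds fibronectin, and alphaV pairs with beta1, beta5 or beta8 to bind ligands such as vitronectin and latent TGF-beta. Inside the cell, ILK sits at the beta1 tail in a complex with PINCH and parvin and links the receptor to actin.

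Reads counted on genes came to 81602367 and 74108017 for the S100A4-/- pools, against 70253985 and 68038158 for the WT pools. Levels are given as the normalized value, the reads of a gene divided by 1 size factor per library. A single read was worth 0.856 and 1.01 units in the S100A4-/- pools, against 1.04 and 1.09 units in the WT pools. S100a4 itself had 17 and 18 reads without the gene, against 13810 and 13138 in WT, so every library matched its label. The lens label also held. The lens fiber markers held the most abundant genes examined, with alphaA-crystallin (Cryaa) at 11948842 and 13289361 in S100A4-/- and 13062948 and 13333352 in WT, and Foxe3, a transcription factor of the lens epithelium, lay between 4810 and 5237 in all 4 libraries.

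The most abundant of the 10 genes was Itgb5, the beta5 chain. To compare genes, the normalized value was divided by the length of all annotated exons of the gene, in kilobases (kb). Itgb5 lies on the plus strand of chromosome 16, from 33829665 to 33949338 in the mouse build GRCm38, and its longest coding transcript has 15 exons. It was at 3788 and 3851 per kb in the S100A4-/- libraries and 3796 and 3957 per kb in the WT libraries. This was above 98.5% of the genes tested. Next came Itgb1, at 2009 and 1940 per kb in S100A4-/- and 2196 and 2078 per kb in WT, and Itga6, at 1256 and 1260 against 1346 and 1402 per kb. Ilk stood at 1023 and 1008 against 1041 and 1124 per kb.

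A step down from these, Itga3 was at 426 ± 22.4 per kb (SD, n = 4 libraries) and Itgav at 260 ± 12.2 per kb (SD, n = 4). Itga5 was at 65.6 ± 4.48, Itgb8 at 43.1 ± 4.03 and Itga2 at 31.7 ± 3.79 per kb (SD, n = 4 each). Itgb4 was the lowest, at 5.01 ± 0.91 per kb (SD, n = 4), with between 29 and 42 reads in a library, and 10.1% of the genes tested lay below it. For every pair of neighbours in this order, the lowest library of the higher gene lay above the highest library of the lower gene. By the mean ratio over the 4 libraries, the smallest step was from Itga6 to Ilk, at 1.25 with ratios of 1.23 to 1.29. The largest by that measure was from Itga2 to Itgb4, with ratios of 5.16 to 8.34. Between Itgb8 and Itga2 the mean ratio was 1.36, but the lowest was 1.19. The order of Itgb1 and Itga6 depended on the length used. Divided by the longest coding transcript, Itga6 was at 2755 per kb and Itgb1 at 2199, and the other 8 genes kept their places.

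**Figure D1:**
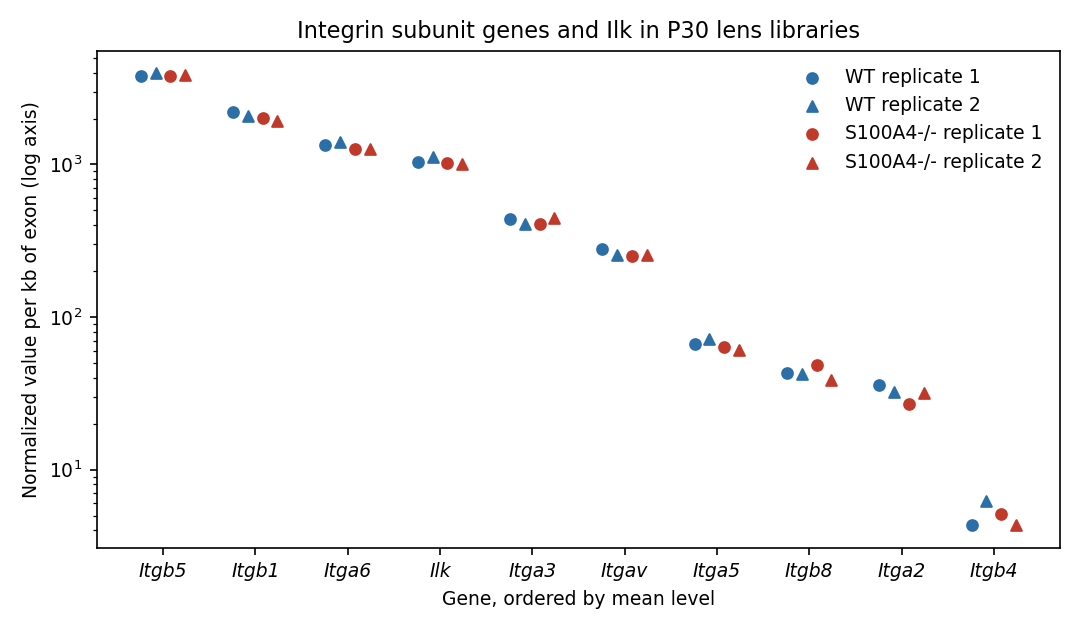
Normalized value per kb of exon (vertical log axis) of the 10 genes in each of the 4 libraries, WT in blue and S100A4-/- in red, with circles for replicate 1 and triangles for replicate 2. The genes span from about 5.01 per kb for Itgb4 to 3848 per kb for Itgb5, and the libraries of each gene lie close together at this scale.

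The stretches before the start sites of the highest gene and of the lowest gene with a RefSeq promoter window are shown because their levels lie far apart. Each runs 250 bases up to the start site in build GRCm38.p6, and capitals mark the GC box GGGCGG or its reverse complement CCGCCC. The Itgb5 stretch is chr16:33829415-33829664 on the plus strand, and the Itga2 stretch is chr13:114932101-114932350 on the minus strand.
Itgb5: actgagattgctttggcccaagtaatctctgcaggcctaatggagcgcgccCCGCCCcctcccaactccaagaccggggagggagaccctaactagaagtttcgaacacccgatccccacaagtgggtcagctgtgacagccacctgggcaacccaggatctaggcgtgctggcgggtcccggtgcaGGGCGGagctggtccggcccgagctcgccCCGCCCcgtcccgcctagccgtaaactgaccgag
Itga2: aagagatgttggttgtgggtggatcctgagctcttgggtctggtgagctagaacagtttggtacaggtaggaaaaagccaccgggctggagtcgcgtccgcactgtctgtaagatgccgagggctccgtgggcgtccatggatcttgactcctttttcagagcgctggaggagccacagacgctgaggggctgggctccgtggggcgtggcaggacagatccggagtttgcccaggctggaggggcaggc
The Itgb5 stretch has 3 GC boxes and 18 CpG pairs, and the Itga2 stretch has 0 GC boxes and 12 CpG pairs. Windows were found for 8 of the 10 genes, Itga6 and Itgb4 being the others. Of these 8, 4 held a GC box (Itgb5, Itgb1, Itga3 and Itga5), against 32.7% of all 32851 windows of this length. All 8 had more CpG pairs, 11 to 22, than the median window, which has 6. None of the 8 held TATAAA on either strand, which 12.4% of all windows did. The matches are a description of these letters and say nothing of which factors bind there.

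The comparison of S100A4-/- with WT lenses asked whether the absence of S100A4 changes the RNA level of the lens integrins. No member passed a change of 2-fold or more together with an adjusted p of 0.05 or less, the limits of the study, which took its p from DESeq2. Here the p came from limma, with Benjamini-Hochberg adjustment over all genes tested. Of all genes tested, 3.65% passed it upward and 0.0744% downward. With no demand on the fold, 0 of 10 members passed, against 5.62% of all genes upward and 1.33% downward. DESeq2 and edgeR on the recovered reads also called 0 of 10, and limma with the replicate number as a block called 1, Itga6. At an unadjusted p under 0.05 there were 2 members, Itga6 and Itgb1, with limma, DESeq2 and edgeR alike, against 17.7% of all genes with limma. The number of genes called across the table rested on the S100A4-/- libraries, since 539 genes passed upward with all libraries, 168 without S100A4-/- replicate 1 and 210 without S100A4-/- replicate 2. The corresponding numbers downward were 11, 4 and 6.

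The differences were small, and for most members the limma intervals were narrow. Their width rests in large part on the variance of other genes of similar level, not on the 2 pools a group alone. The log2 fold changes lay between −0.22 (Itga2) and 0.02 (Itga3), on the log2(value + 1) scale, so all 10 were within 0.25 of 0, against 72.1% of all genes tested. With quantile normalization Itgb4 was at −0.418 and Itga2 at −0.285, both outside that range. For 9 of 10 members the 95% interval of the difference lay wholly within a 1.5-fold change either way, against 64.8% of all genes. The members had a median value of 2615.9 over the 4 libraries, against 313.6 for all genes tested. These shares therefore do not compare genes of like level, and the members are not shown to be steadier than such genes. The exception was Itgb4, with an interval from −0.84 to 0.57. The tightest interval was that of Itgb5, from −0.11 to 0.07, a change of −7.24% to 4.69%. Below 0 were 8 of the 10 log2 fold changes, where 51.2% of all genes tested are, and the median of the members was −0.10 against −0.005 over all genes. In 6 members both S100A4-/- libraries lay below both WT libraries, where 23.2% of all genes do. In none did both lie above, where 23.7% of all genes do. With each library scaled to an equal total the median of the members was −0.07 and that of all genes 0.02.

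**Figure D2:**
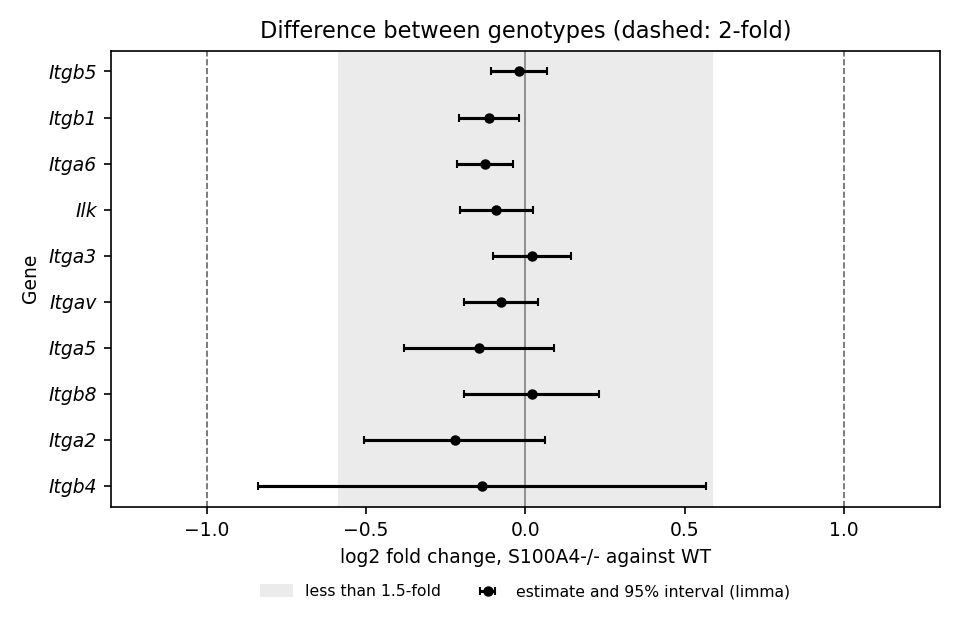
Log2 fold change of S100A4-/- against WT for the 10 genes, with points for the limma estimate and bars for its 95% interval (n = 2 libraries a group), a grey band for less than 1.5-fold and dashed lines at 2-fold. All intervals except that of Itgb4 stay inside the grey band, and 8 of the 10 estimates lie left of 0.

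The lowest p-values among the members were those of Itga6 and Itgb1, which pair as a laminin receptor. Itga6 (chromosome 2, 71745616 to 71858416, plus strand) had normalized values of 11333 and 11369 in S100A4-/- and 12147 and 12654 in WT lenses. The groups did not overlap, and the 2 S100A4-/- libraries lay closer to each other than the WT libraries did. The change was −8.44% (95% interval −13.87 to −2.66%, log2 fold change −0.13, standard error 0.04, limma adjusted p = 0.0742). Over the alternatives tried, its adjusted p ranged from 0.0213 to 0.541. The lowest came from limma with the replicate number as a block, which is no pairing by the labels, and Itga6 passed there alone. Part of the gene overlaps the noncoding genes Gm13662 and Gm13663 on the same strand, and reads there may not have been counted for Itga6.

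Itgb1, the partner of most of the alpha chains here, lies on chromosome 8 from 128685654 to 128733200 on the plus strand. It was at 8198 and 7916 in S100A4-/- and 8962 and 8480 in WT lenses, again with no overlap. Its change was −7.59% (95% interval −13.4 to −1.39%, log2 fold change −0.11, standard error 0.05, limma adjusted p = 0.157). Among the members, the other alpha chain named above as binding laminin is Itga3 (chromosome 11, 95044474 to 95076801, minus strand). Its difference from Itga6 and Itgb1 was not tested. It had 2340 and 2564 in S100A4-/- against 2523 and 2310 in WT, so the groups overlapped, the lowest library being WT and the highest S100A4-/-, with a log2 fold change of 0.02 (95% interval −0.10 to 0.14, limma adjusted p = 0.908).

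Itgb4, on chromosome 11 from 115974709 to 116008412 on the plus strand, encodes the hemidesmosome chain. Its reads numbered 42 and 30 without S100A4 and 29 and 40 with it, and it had normalized values of 36.0 and 30.4 against 30.3 and 43.8. The WT libraries held both the lowest and the highest of the 4 values. At this depth a change between −44.08% and 48.15% was not told from none (limma adjusted p = 0.894).

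Itga2, the collagen-binding chain (chromosome 13, 114833081 to 114932100, minus strand), had the lowest log2 fold change of the members and among the fewest reads, 210 to 246 in a library. It was at 191 and 227 in S100A4-/- and 257 and 230 in WT lenses. The nearest values of the groups were 227.0 and 229.9, while the S100A4-/- libraries differed by 0.25 on the log2 scale. The log2 fold change was −0.22 (95% interval −0.51 to 0.06, limma adjusted p = 0.437). As a percent change that interval ran from −29.6% to 4.38%. Without S100A4-/- replicate 1 the log2 fold change was −0.10, and without S100A4-/- replicate 2 it was −0.35.

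Among the chains that bind RGD-containing ligands, Itgav (chromosome 2, 83724397 to 83806916, plus strand) was at 2709 and 2734 in S100A4-/- and 2993 and 2755 in WT lenses. The S100A4-/- libraries were the lower ones, but WT replicate 2 lay nearer to them than to WT replicate 1, and the log2 fold change was −0.08 (95% interval −0.19 to 0.04, limma adjusted p = 0.524). Itga5, the fibronectin receptor chain (chromosome 15, 103344286 to 103366763, minus strand), was at 316 and 299 against 329 and 351. All S100A4-/- values lay below all WT values, and the log2 fold change was −0.15 (95% interval −0.38 to 0.09, limma adjusted p = 0.567).

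The beta5 and beta8 chains overlapped between the genotypes. Itgb5 was at 13458 and 13683 in S100A4-/- and 13487 and 14060 in WT lenses, with a log2 fold change of −0.02 (95% interval −0.11 to 0.07, limma adjusted p = 0.861). Itgb8, which presents latent TGF-beta for activation together with alphaV, lies on chromosome 12 from 119158022 to 119238802 on the minus strand. It had 536 and 428 in S100A4-/- and 474 and 471 in WT lenses. Its S100A4-/- replicates lay 0.33 apart on the log2 scale and on either side of the WT pair, which differed by 0.01. The log2 fold change was 0.02 (95% interval −0.19 to 0.23, limma adjusted p = 0.951), and without S100A4-/- replicate 1 it was −0.14.

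Ilk, on the plus strand of chromosome 7 from 105736592 to 105742925, was at 2806 and 2766 in S100A4-/- and 2858 and 3083 in WT lenses. The groups did not overlap, yet they were nearer to each other than the WT libraries were. The log2 fold change was −0.09 (95% interval −0.21 to 0.02, limma adjusted p = 0.421). Both ends of the gene overlap a coding gene on the opposite strand, Rrp8 at the start and Taf10 at the end. The library kit keeps the strand, but the setting used to count is not given in the sources used here, so reads at these ends may have been lost.

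The makeup of the integrin RNA was alike in the 4 libraries. Of the summed value per kb of the 5 alpha chains, Itga6 held 62.5% and 61.3% in S100A4-/- and 62.0% and 64.7% in WT lenses, and Itga3 held 20.4% and 21.8% against 20.4% and 18.7%. Itgav followed with 11.8% to 12.8%, and Itga5 and Itga2 held at most 3.29% and 1.66% in any library. Of the 4 beta chains, Itgb5 held 64.8% and 66.0% against 62.9% and 65.0%, Itgb1 34.3% and 33.2% against 36.4% and 34.1%, and Itgb8 and Itgb4 at most 0.83% and 0.10%. No chain changed rank within its class in any library. The ratio of Itga6 to Itga3 was 2.94 ± 0.18 in S100A4-/- and 3.26 ± 0.30 in WT lenses (SD, n = 2 each), a difference close to the spread between replicates. The ratio of Itgb1 to Itga6 was 1.57 ± 0.04 against 1.56 ± 0.11 (SD, n = 2 each). These ratios compare genes through their exon lengths, and with the longest coding transcript the last of them would turn below 1.

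**Figure D3:**
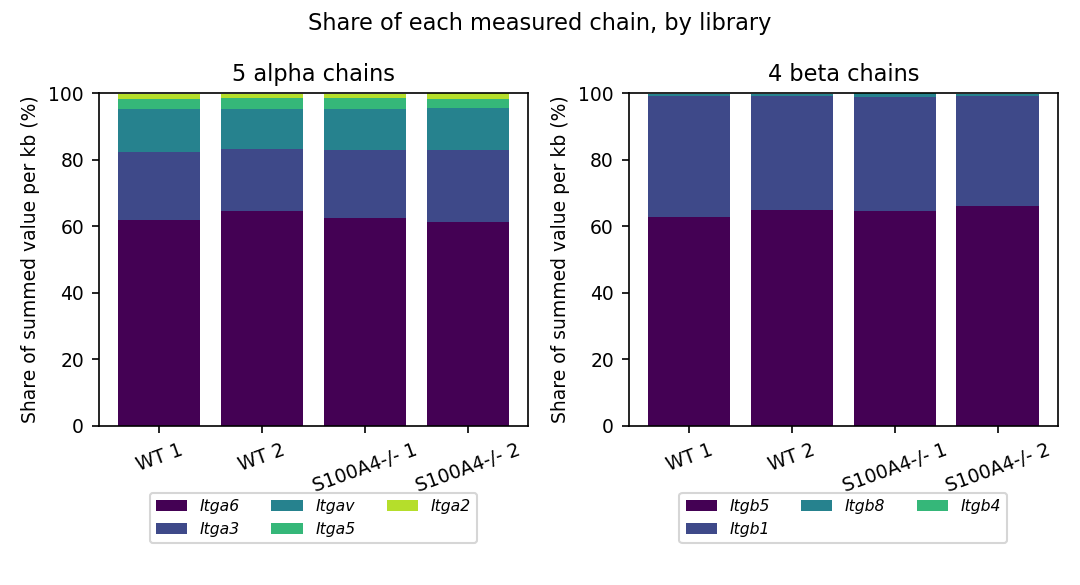
Share of the summed value per kb of exon (vertical axis, percent) held by each of the 5 alpha chains (left) and 4 beta chains (right), with 1 bar per library. Itga6 and Itgb5 hold the largest share in every library, from 61.3 to 64.7% and from 62.9 to 66.0%.

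The other integrin chains were rare in the lens. Of 17 listed, 10 had a row used here and 9 were tested, and none passed the adjusted threshold by limma. Per kb of exon the highest was Itga2b, the platelet chain alphaIIb, with a mean of 13.0 per kb in S100A4-/- and 12.6 per kb in WT lenses. The collagen-binding chain Itga1 was at 8.02 and 7.75 per kb, and the member Itgb4 was lower, at 4.73 and 5.28 per kb. The summed value of the 10 was 486 and 454 against 426 and 451, beside 41922 and 42017 against 44059 and 44438 for the members. The leukocyte chain Itgam stood out by size only, with 14 and 15 reads in the S100A4-/- pools but 4 and 2 in WT (log2 fold change 1.84, standard error 0.77, limma adjusted p = 0.174). Itgam reached the filter value of 10 only in the S100A4-/- libraries, so its size of change carries no weight. Its partner Itgb2 had 11 and 2 reads against 1 and 0 and was not tested. Of 6 macrophage and leukocyte markers, 4 had a row used here and 2 rose (limma), where 5.62% of all genes tested did. The sum of these 4 markers was 199 and 153 in S100A4-/- against 63.7 and 70.1 in WT, C1qa being the most abundant per kb. Their part in the reads of Itgam and Itgb2 was not tested.

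Inside the cell, genes of the integrin adhesion complex gave 4 calls, all upward. Of 29 listed genes of the adhesion complex, 27 were tested, and limma at an adjusted p of 0.05 or less had 4 rising and 0 falling, or 14.8% of those tested against 5.62% of all genes, with a median of 0.03 on the log2 scale. None of the 4 tested partners of ILK passed. The PINCH genes Lims1 and Lims2 were at −0.04 and −0.54 on the log2 scale, and the parvin genes Parva and Parvb at −0.11 and 0.09. Lims2 was low, at 28.3 and 32.4 in S100A4-/- against 38.6 and 51.5 in WT, and its 95% interval ran from −1.22 to 0.14. The talins Tln1 and Tln2, which switch integrins on, were at 0.01 and −0.01. The 4 that rose were Vcl (vinculin), from 601 and 614 in WT to 830 and 817 in S100A4-/- lenses, Actn1 (alpha-actinin), Tns1 (tensin) and Ptk2b. On the log2 scale these rises were 0.44 (standard error 0.08, limma adjusted p = 2.72e-04), 0.36 (0.07, 4.99e-04), 0.33 (0.07, 5.68e-04) and 2.31 (0.27, 3.19e-08). Ptk2b, a kinase of the focal adhesion kinase family that is abundant in neurons and macrophages, was the only gene past 2-fold, from 28.2 and 21.9 to 129 and 125. Without S100A4-/- replicate 1 there were 2 rising genes, Actn1 and Ptk2b, where 1.47% of all genes rose. Without S100A4-/- replicate 2 there were 2, Vcl and Ptk2b, where 1.88% of all genes did. Without limma's variance trend there was 1, Ptk2b, where 1.21% did.

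The 7 tested genes of 10 listed as hemidesmosome and tetraspanin partners gave no call in either direction (limma), with a median of 0.00. Plectin (Plec) and dystonin (Dst), which tie beta4 to keratin in hemidesmosomes, were present at 10263 and 11833 against 10885 and 11679, and at 12671 and 11727 against 11415 and 11967. Per kb they had means of 623 and 284 in WT. The hemidesmosome and keratin genes Col17a1, Krt5 and Krt14 of the same list had no row used here.

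Of 28 genes listed as integrin ligands, all were tested, 6 rose, 2 fell and 20 did not pass (limma). This is 21.4% rising and 7.14% falling, against 5.62% and 1.33% of all genes, and the median over the list was 0.01 on the log2 scale. The most abundant ligand gene per kb, Col4a1, a chain of the collagen IV of the capsule, did not pass, at 213579 and 214085 in S100A4-/- against 224625 and 224233 in WT. The laminin chain Lama1 did not pass either, at 2575 and 2298 against 2360 and 2483. The largest rises that passed were those of Fbn1, Vtn and Spp1. Fbn1 (fibrillin-1) rose from 734 and 966 in WT to 3258 and 2890 in S100A4-/- lenses, or by 1.86 on the log2 scale (standard error 0.08, adjusted p = 3.31e-20 by limma). Vtn (vitronectin), the ligand of alphaV-beta5, rose from 118 and 92.0 to 379 and 370, or by 1.84 on the log2 scale (standard error 0.15, adjusted p = 3.82e-12 by limma). Spp1 (osteopontin) had 0 reads in both WT libraries and 15 and 13 in S100A4-/-. This is at least 4.05-fold higher against a floor of 3 reads per library (limma adjusted p = 0.027). Spp1 reached the filter value only in the S100A4-/- libraries, so neither this p nor its place among the 6 rising ligands carries weight. With a mean value of at least 50 required, Spp1 was not tested and 5 ligands rose.

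Smaller rises were found in Thbs1 (thrombospondin-1), Lamb2 (a laminin beta chain) and Col1a2 (a collagen I chain), with log2 fold changes of 0.43, 0.34 and 0.34 (limma adjusted p = 0.0196, 0.00422 and 0.00161). The call for Thbs1 was lost with DESeq2 (adjusted p = 0.155), with quantile normalization (0.0751, which also ended those for Spp1 at 0.123 and Tgfb3 at 0.0528) and without WT replicate 2 (0.0658), and that for Lamb2 without WT replicate 1 (0.189). Without S100A4-/- replicate 1 the log2 fold change of Thbs1 was 0.26. The 2 that fell, named after their values were seen, were the growth factor genes Tgfb2, from 4094 and 4278 in WT to 3557 and 3637 in S100A4-/- lenses, and Tgfb3, from 2816 and 3049 to 2332 and 2635. The changes were −0.22 and −0.24 on the log2 scale (limma adjusted p = 0.00397 and 0.00726). Both genes are counted here by the list alone, and whether the product of each binds the chains followed here was not tested. Neither passed with each library scaled to an equal total (0.0944 and 0.0774) or with limma fitted without a variance trend (0.337 and 0.464). Nor did they pass without WT replicate 2, where the changes were −0.19 and −0.18. Without S100A4-/- replicate 1 neither did, with Tgfb3 at −0.15 on the log2 scale, and without S100A4-/- replicate 2 only Tgfb3 did, at −0.33. Of the 6 that rose, Fbn1 and Vtn alone passed without either S100A4-/- library. With limma fitted without a variance trend, Fbn1 and Vtn stood at adjusted p = 0.0613 and 0.0508 and only Spp1 passed. That call carries no weight, since Spp1 was at 0 in both WT libraries, with no spread, and reached the filter value only in the S100A4-/- libraries.

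Markers of several other eye cell types rose in S100A4-/- lenses, where 5.62% of all genes tested rose (limma, adjusted p of 0.05 or less). All 7 rod markers rose, their sum being 9046 and 8856 in S100A4-/- against 2269 and 2446 in WT, with Gnat1 the most abundant per kb in both genotypes, the scale used for the leading marker of every list. Of 6 Müller glia and astrocyte markers 4 rose (sum 16348 and 15976 against 5362 and 6220, Apoe the most abundant), of 7 pigment cell markers 6 rose (1690 and 1708 against 421 and 555, Ttr the most abundant), and of 5 ciliary epithelium markers 4 rose (1282 and 1271 against 300 and 313, Best2 the most abundant). No marker of these 4 lists was at 0 in both WT libraries, and their part in the values of Fbn1, Vtn and Ptk2b was not tested. Blood vessel markers summed to 182 and 198 against 97.1 and 137 over the 5 with a row used here, Cldn5 the most abundant, and 1 rose, Kdr. Both Kdr and Mlana, which is among the pigment cell markers that rose, reached the filter value of 10 only in the S100A4-/- libraries. The 3 blood cell markers with a row summed to 223 and 217 against 129 and 77.7, Hbb-bs the most abundant, and 1 rose.

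Of the lens's own markers none passed (limma). The 11 fiber markers had a median of −0.07 on the log2 scale, and in 6 of them both S100A4-/- libraries lay below both WT libraries, against 23.2% of all genes. Mip, the fiber membrane protein aquaporin-0, had the lowest p of these, with a log2 fold change of −0.12 (limma adjusted p = 0.124). The 6 epithelium markers had a median of 0.00, with sums of 21459 and 21197 in S100A4-/- against 21199 and 21579 in WT, Foxe3 the most abundant. They lay on both sides of 0, from −0.16 for Cdh1 to 0.21 for Krt18. Of the mesenchyme markers, 4 of 5 were tested, Pdgfrb being the most abundant, and 1 rose, where 5.62% of all genes tested did. It was the same Col1a2 that is among the ligands. Of 5 corneal and surface epithelium markers, 2 had a row used here, and the most abundant, Aldh3a1, was at 1527 and 1682 against 1600 and 1615.

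**Figure D4:**
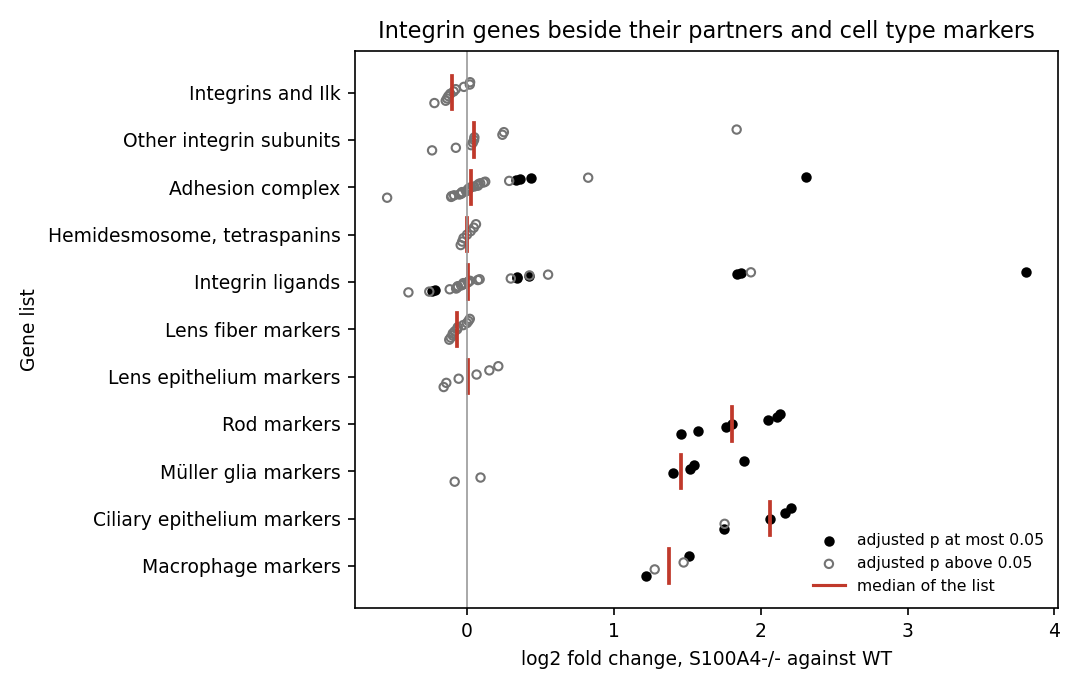
Log2 fold change of S100A4-/- against WT (horizontal axis) for each tested gene of 11 lists, filled where the adjusted p was at most 0.05 and open where it was not, with the median of each list as a red line. The integrins and Ilk and the lens markers lie around 0, and the rod, Müller glia, ciliary epithelium and macrophage lists have medians of 1.81, 1.46, 2.06 and 1.38.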

How the data were processed

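RNA-seq of 4 lens libraries was used, with groups and replicate numbers from the sample labels and age and pool size from the study. Reads were trimmed by the authors (Trim Galore), aligned by STAR to GRCm38, which the labels call mm10, and counted by HTSeq where they had a single locus. Genes that reached 10 reads in some library were retained, and DESeq2 gave the normalization. The study names its reference GRCm38v73, and tool versions are not given in the sources used here. The signal values the authors deposited are counts divided by 1 size factor per library. In each library 100.0% of values were whole reads (tolerance 0.01 reads), and size factors recomputed from them were 1.0000 times the deposited ones. No column was left without a sample (0).

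Names, coordinates and exon lengths came from GENCODE M21 (14782 of 14924 identifiers matched), and promoter windows from RefSeq. GENCODE M21 is not the annotation the reads were counted on, so exon lengths and overlaps may differ from those behind the counts. The test was limma with a variance trend, on log2(value + 1), over the 14780 genes that reached a value of 10 in any library, with Benjamini-Hochberg adjustment. The 1 added to each value makes changes of low genes look smaller than they are. Within each group the replicates differed beyond sampling noise (median chi-square 2.03 and 1.10, where noise gives 0.455). This check scaled libraries by their total reads, not by the size factors, so part of the excess may be an offset of scaling. The study calls the replicates biological repeats. With 2 pools a group, limma draws the variance of a gene in large part from genes of similar level. Its p-values and intervals therefore do not measure the spread of that gene between pools alone. A floor of 3 reads covers counting error only. edgeR and DESeq2 on the recovered reads were alternatives, with other pseudocounts, filters and scalings and fits without each library. The procedures were first tested on simulated data.

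The members and lists were chosen with earlier results of these data known. The naming rule took all members, S100a4, up to 6 genes of each integrin-related list with adjusted p of at most 0.05, the largest changes first, and the most abundant gene (per kb) of each marker list. Other genes were named after their values were seen. Genes of similar pattern were to be named for members past that threshold, of which there were 0. Tools were limma 3.58.1, DESeq2 1.42.0 and edgeR 4.0.16, run in R 4.3.3, and Python 3.11.15.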

Additional observations from a re-analysis of the deposited data

How the results depend on the processing

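None of the 10 members passed at 2-fold under any of the 15 alternatives. At an adjusted p alone the count was 0 except with the replicate number as a block, where it was 1 (Itga6, adjusted p = 0.0213). The block is no pairing by the labels, and replicates of the same number deviated together with r = 0.0119 over 14780 genes. The count of members with an interval within 1.5-fold stayed between 8 and 9 under the 14 alternatives that give an interval, edgeR giving none, and with a mean value of at least 50 only 9 members were tested. Of 149 values of single members, 141 kept their direction and call and 7 changed sign, and in no case with a call. Itgb5 was at 0.008 with equal totals and 0.007 with quantile normalization. With each library left out, Itgb5 ranged from −0.051 to 0.009, Itgb8 from −0.14 to 0.18, Itga3 from −0.045 to 0.087 Itgb4 from −0.395 to 0.123, Itga2 from −0.346 to −0.098, Itgav from −0.137 to −0.018, Ilk from −0.146 to −0.037, Itga5 from −0.193 to −0.097, Itgb1 from −0.154 to −0.074 and Itga6 from −0.157 to −0.098. A left-out library leaves a lone sample that is assumed to vary like the others. Genes called upward at 2-fold across the table numbered 539, but 281 with a mean value of at least 50 and 174 without the variance trend. Downward they numbered 11, but 23 with quantile normalization, 7 without the trend and 6 with DESeq2 or a mean value of at least 50. At an adjusted p alone, 831 genes were higher and 197 lower, against 982 and 348 with the block, 783 and 55 with equal totals, 571 and 90 with DESeq2, 549 and 177 with a mean value of at least 50 and 179 and 8 without the trend. They were 218 and 31 without S100A4-/- replicate 1, 278 and 61 without S100A4-/- replicate 2, 772 and 111 without WT replicate 1 and 803 and 95 without WT replicate 2. Depth limits Itgb4, with 29 to 42 reads a library.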
